A study of Mus musculus with 24 samples.

Results

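The protein shell of the cytosolic ribosome is encoded by a large family of genes, and the transcripts of 83 of them were followed here in mouse ovarian follicles. The 83 genes were taken by name (the symbols of large and small subunit proteins and their named copies) and by a level of at least 1 CPM (estimated counts per 1000000 counts of the library) on average over the 12 libraries of either cell type. They were drawn from 78298 genes listed, of which 85 carried a matching name. The 2 names below the level were Rpl3l, with a mean of 0.0114 CPM in granulosa cells and 0 in oocytes, and Rpl32l, with 0 counts in every library. Just inside the level stood Rpl6l, with 1.55 CPM in granulosa cells and 3.27 in oocytes, and Rpl10l, with 0.0237 and 4.05. Of the 83 genes, 43 belong to the large subunit, 30 to the small subunit and 3 to the P-stalk, and 7 are paralogs or retrocopies (Rpl10l, Rpl22l1, Rpl36al, Rpl39l, Rps27l, Rps4l and Rpl6l). The name rule does not reach 6 further ribosomal protein genes, such as Rack1 and Rpl7l1, which are described separately.

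Follicles from wild-type (WT) mice were held in alginate gel and cultured to day 3 in medium with serum, insulin, transferrin, selenium and 50 mIU/ml follicle stimulating hormone, and those that had passed 180 µm were taken apart into granulosa cells (GC), the somatic cells around the egg, and oocytes (OO). The 3 treatments were control (Ctrl), 20 µM blebbistatin (Blebb), an inhibitor of nonmuscle myosin II, and dextran (Dex), an osmotic polymer labelled at 10 kPa. Each of the 6 groups had 4 RNA-seq libraries, so that 24 libraries were compared. Many granulosa cells were pooled for a library, whereas an oocyte library held 1 to 2 oocytes. The labels used here do not give the age of the mice or say whether replicates came from separate animals, so p-values measure the spread between these libraries, which may be in part technical.

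Ribosomal proteins are made in matched amounts, assembled with ribosomal RNA in the nucleolus and exported as a small subunit, which decodes the mRNA, and a large subunit, which forms the peptide bond. Their mRNAs belong to the TOP class, which begins with a run of pyrimidines and whose translation is regulated by mTORC1 and LARP1. Growing oocytes accumulate ribosomes for later use by the egg and early embryo, while granulosa cells of a growing follicle divide. A few ribosomal proteins have paralogs expressed in particular tissues: Rpl39l and Rpl10l are known from male germ cells, where Rpl10l stands in for its X-linked parent.

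The finding that turned most on a single pair of genes concerned Rpl39, whose protein lines the exit tunnel of the large subunit, and its paralog Rpl39l. Their coding sequences are shown because reads of the 2 genes must be told apart by the bases that differ. The sequences come from GENCODE M21 on GRCm38, and capitals mark the bases at which they differ. Rpl39 lies at chrX:37082701-37085127 on the minus strand, from start to stop codon with introns, and Rpl39l at chr16:10174310-10174465 on the plus strand in 1 uninterrupted stretch.
Rpl39: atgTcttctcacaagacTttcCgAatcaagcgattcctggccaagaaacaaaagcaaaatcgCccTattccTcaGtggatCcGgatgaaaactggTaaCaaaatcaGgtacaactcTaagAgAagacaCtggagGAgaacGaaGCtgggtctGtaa
Rpl39l: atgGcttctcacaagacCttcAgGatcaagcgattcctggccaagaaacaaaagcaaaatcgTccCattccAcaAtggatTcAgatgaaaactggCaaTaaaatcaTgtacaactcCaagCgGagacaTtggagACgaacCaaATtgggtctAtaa
Over 156 coding bases the pair differed at 23 and was 85.3% identical, and the longest stretch shared exactly was 38 bases. The same comparison gave 87.9% identity for Rpl36al and Rpl36a, 84.8% for Rpl10l and Rpl10, 74.9% for Rps27l and Rps27 and 70.2% for Rpl22l1 and Rpl22, none of which shared a stretch of more than 26 bases. Reads inside a shared stretch could be assigned to either copy of Rpl39, and how the authors' counting split them was not tested.

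Start-site windows were read for the members because their mRNAs are known for a pyrimidine start. RefSeq promoters (GRCm38.p6) were found for 61 of the 83 genes. A run of 8 or more bases that were each C or T was searched on the gene's own strand in the 50 bases from 30 before to 20 after the start. It was present for 32 of the 61 (52.5%), against 22.9% of the 27025 genes with a RefSeq promoter. The motif CCGGAAG, searched on both strands of the 300 bases around the start, was present for 25 of the 61 (41.0%) against 9.9%. A match is a description of the letters only. A run need not touch the start, and those of Rpl39 and Rpl39l lie wholly before it, so a match is not in itself a pyrimidine start. The windows below are of 2 genes with long runs, Rpl35 and Rps10, and of the 3 genes the results turn on, Rpl39, Rpl39l and Rpl22l1; capitals mark the longest run.
Rpl35 (chr2:39005112-39005161, minus strand): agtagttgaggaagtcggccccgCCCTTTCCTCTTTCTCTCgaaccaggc
Rps10 (chr17:27635225-27635274, minus strand): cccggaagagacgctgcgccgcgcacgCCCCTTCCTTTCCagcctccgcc
Rpl39 (chrX:37085203-37085252, minus strand): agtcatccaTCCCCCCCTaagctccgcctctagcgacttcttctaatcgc
Rpl39l (chr16:10170198-10170247, plus strand): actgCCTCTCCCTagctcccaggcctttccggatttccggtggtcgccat
Rpl22l1 (chr3:28805478-28805527, plus strand): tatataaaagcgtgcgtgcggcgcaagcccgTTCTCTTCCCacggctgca
The 32 genes with a run had a median log2 change from granulosa cells to oocytes of -1.75 and the 29 without one of -2.12. Changes ran from -2.75 to 11.27 among genes with a run and from -4.11 to 6.29 among those without.

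Library totals ran from 16432298 to 22431013 estimated counts in granulosa cells and from 14244103 to 18399551 in oocytes. Blebbistatin granulosa library 1 had counts for 14544 genes, against 18611 to 24309 genes in the other granulosa libraries. The labelled cell types matched their markers. Of 20 granulosa markers, 18 to 20 stood above 1 CPM in every granulosa library. Of 20 oocyte markers, 19 did so in every oocyte library and 2 to 4 in the granulosa libraries. In granulosa libraries Zp3 did not exceed 0.237 CPM, whereas Tle6 reached 36.9 CPM and Kit 23.3 CPM. The oocyte markers summed to 11.1 to 58.7 CPM there, against 28030 to 40040 CPM in oocyte libraries. Granulosa transcripts differed between the oocyte libraries. Inha, the inhibin alpha subunit made by granulosa cells, stood at 283, 1510, 37.2 and 12.5 CPM in the 4 control oocyte libraries, at 208, 53.6, 46.5 and 16.4 with blebbistatin and at 23.8, 4.57, 0.754 and 39 with dextran. All 20 granulosa markers passed 1 CPM in control oocyte library 2, 16 in library 1, 9 in library 3 and 8 in library 4, against 9 to 14 with blebbistatin and 5 to 10 with dextran. Summed over the list they came to 514 to 3304 CPM in control, 462 to 784 with blebbistatin and 403 to 564 with dextran. Much of this sum was Serpine2, at 338 to 743 CPM in the oocyte libraries. In dextran library 3 it was 497 of 564 CPM, with Inha at 0.754 CPM. Cyp19a1, also on the list, was at 17.6 to 36.8 CPM in oocyte libraries and 0 to 17.9 CPM in granulosa libraries. The sum is therefore not a measure of granulosa transcripts alone. Foxl2 was at 0 in control libraries 3 and 4. For these granulosa transcripts in bulk oocyte libraries, fewer granulosa cells and less RNA per granulosa cell cannot be told apart. Among granulosa libraries, blebbistatin 1 and 2 held macrophage transcripts, with Lyz2 at 374 and 647 CPM and 8 and 10 of 10 markers above 1 CPM, whereas Lyz2 did not exceed 7.52 CPM in the other 10. Stromal and smooth muscle markers (15 genes) summed to 420 to 1644 CPM in the 4 blebbistatin granulosa libraries, 25.7 to 409 CPM in control and 29.9 to 379 CPM with dextran. Results that rest on these libraries are given with and without them.

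The 83 genes together took a several times larger share of the granulosa transcriptome than of the oocyte transcriptome. In control granulosa cells they made up 5.17% ± 0.145 (SD, n = 4) of all estimated counts, with blebbistatin 4.95% ± 0.566 and with dextran 4.98% ± 0.320. In oocytes the share was 1.16% ± 0.101 in control, 1.09% ± 0.0826 with blebbistatin and 0.978% ± 0.0977 with dextran. The granulosa share was thus 4.45 times the oocyte share in control, 4.55 times with blebbistatin and 5.09 times with dextran. Every granulosa library (4.22 to 5.49%) lay above every oocyte library (0.923 to 1.29%). Within a cell type the 3 treatments overlapped. In oocytes the overlap of dextran came from dextran library 2, at 1.12%. Dextran libraries 1, 3 and 4, at 0.923 to 0.934%, lay below every control and blebbistatin oocyte library, of which the lowest was at 0.985%. Without control oocyte libraries 1 and 2 the control oocyte share was 1.14%, and without blebbistatin granulosa libraries 1 and 2 that group's share was 5.14%.

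**Figure D1:**
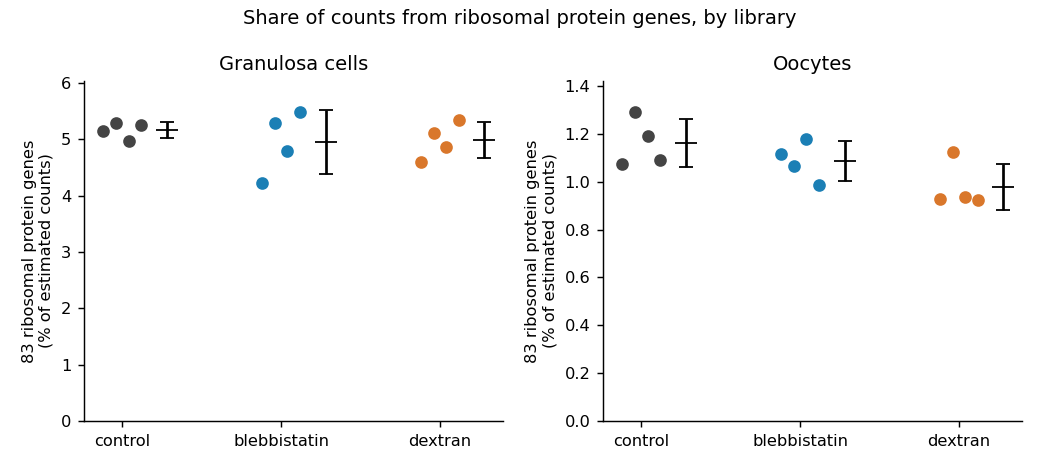
Share of all estimated counts (percent, linear axes from 0, with a different scale for each cell type) from the 83 ribosomal protein genes; each point is a library, and the bar to its right is the group mean with its SD (n = 4). Granulosa libraries lie between 4.22 and 5.49% and oocyte libraries between 0.923 and 1.29%. The treatments overlap in both, in oocytes for dextran only through dextran library 2.

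Control oocytes were compared with control granulosa cells to ask how evenly the family differed between the 2 cell types. Of the 83 genes, 77 were lower in oocytes and 5 were higher at an adjusted p under 0.05 (edgeR quasi-likelihood test, Benjamini-Hochberg over 20601 genes), where 32.9% of all genes tested were lower and 44.4% higher. The 4 control oocyte libraries all lay below the 4 granulosa libraries for 76 members (32.6% of all genes) and all above for 5 (43.6% of all genes). The median change was -1.84 on the log2 scale, against 0.41 for all genes tested. That scale depends on the normalisation: the median of all genes moved to 0.06 with library totals and to 0.50 with factors computed without the members, and the members' median moved with it to -2.19 and -1.75. These values are shares of a library's total, and amounts per cell were not measured.

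The decrease was spread over both subunits but differed in size between their members. All 30 small subunit genes and 41 of 43 large subunit genes were lower, with medians of -1.83 and -2.11. In all, 4 genes fell by more than 3 on the log2 scale, 35 had a change between -3 and -2, 32 between -2 and -1 and 7 between -1 and 0. By adjusted p the strongest calls among the lower genes were Rpl32, Rpl13, Rpl10a, Rps25, Rpl14, Rps2, Rps26 and Rpl11, core proteins of the 2 subunits. Rpl32 stood at 1080 to 1100 CPM in control granulosa cells and at 213 to 262 CPM in control oocytes, and its log2 change was -1.82 ± 0.10 (SE; edgeR adjusted p = 2.46e-12). Rpl13 stood at 1950 to 2020 CPM and at 233 to 348 CPM, a log2 change of -2.55 ± 0.15. Both genes were thus separated between the cell types by several times the spread between libraries, and the other 6 had changes of -1.69 to -2.24.

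The largest decreases were those of Rpl9, Rpl3, Rps28 and Rps23. Rpl9, a large subunit protein, was at 786, 742, 732 and 689 CPM in control granulosa cells and at 23.1, 94.6, 5.23 and 2.35 CPM in control oocytes. Its oocyte values differed widely among themselves, with the highest in the 2 libraries that also held the most Inha. The log2 change was -4.11 ± 0.77 (edgeR adjusted p = 6.45e-05) with all libraries and -7.33 ± 0.59 without control oocyte libraries 1 and 2. Rpl3, which lies next to the peptidyl transferase centre, was at 1460, 1590, 1410 and 1760 CPM against 104, 228, 70.2 and 47.2 CPM. Its log2 change was -3.39 ± 0.34 with all libraries and -4.45 ± 0.21 without those 2. Rps28 (-3.38 ± 0.33) and Rps23 (-3.21 ± 0.37), small subunit proteins, moved to -4.25 and -4.22 without them.
Over the 12 oocyte libraries Rpl9 followed the same order at its upper end as Inha: control 2 held 9.02% of the granulosa control mean of Inha and 12.8% of that of Rpl9, control 1 held 1.69% and 3.13%, and blebbistatin 1 held 1.24% and 2.59%. In the other 9 oocyte libraries Inha was at 0.0045 to 0.32% and Rpl9 at 0.243 to 0.946% of the granulosa level. The part of granulosa transcripts in these values was not tested. Rpl39 did not share this pattern, at 60.9% of the granulosa level in control oocyte library 2 and 56.3 to 89.5% in the other 11.

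**Figure D2:**
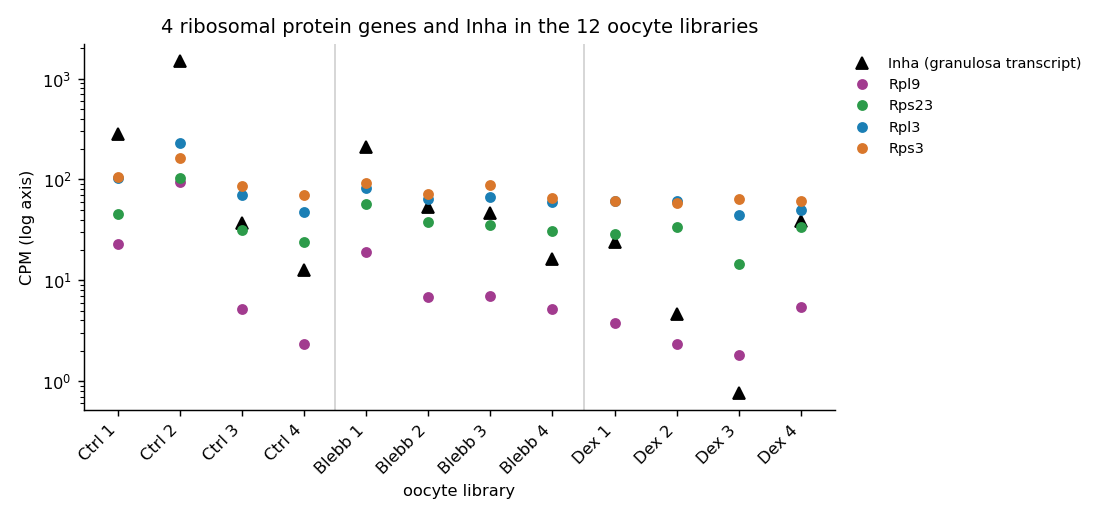
CPM (log axis) of Rpl9, Rps23, Rpl3 and Rps3 and of the granulosa transcript Inha in each of the 12 oocyte libraries, grouped by treatment; each symbol is 1 gene in 1 library. The highest value of all 5 genes is in control library 2, where Inha reaches 1510 CPM and Rpl9 94.6 CPM.

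The P-stalk, the flexible arm of the large subunit that recruits translation factors, was lower in oocytes for all 3 genes. Rplp0 was at 1920, 1990, 1930 and 2050 CPM in control granulosa cells and at 489, 551, 632 and 550 CPM in control oocytes, a log2 change of -1.48 ± 0.12. Rplp1 was at 299, 309, 283 and 274 CPM against 64.3, 81.9, 80.5 and 66.6 CPM, a change of -1.64 ± 0.15. Rplp2 was at 269, 277, 253 and 248 CPM against 105, 105, 130 and 116 CPM, a change of -0.86 ± 0.11. The 2 cell types did not overlap for any of the 3, and the partner proteins Rplp1 and Rplp2, which bind Rplp0 as dimers, differed in the size of their change; that difference was not tested. Rpsa, the laminin receptor protein of the small subunit, changed by -2.21 ± 0.17 and Rps27a, which is made as a fusion with ubiquitin, by -2.10 ± 0.16. The edgeR adjusted p of these 5 genes did not exceed 5.55e-07.

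Few members of the core set escaped the decrease. Rpl17, a large subunit protein at the tunnel exit, was at 350, 395, 349 and 347 CPM in control granulosa cells and at 413, 364, 461 and 454 CPM in control oocytes. On library totals these values overlapped at 395 and 364 CPM; after the joint scaling all 4 oocyte libraries lay above, with a log2 change of 0.57 ± 0.10 (edgeR adjusted p = 2.98e-05) that was 0.23 (adjusted p = 0.0464) with library totals as scaling. Rps13, a small subunit protein, was at 366, 405, 358 and 336 CPM against 225, 212, 275 and 233 CPM, and its change of -0.29 ± 0.10 (edgeR adjusted p = 0.0124) did not pass without control oocyte libraries 1 and 2 (-0.26, adjusted p = 0.136). Rpl39 was at 160, 146, 137 and 150 CPM against 103, 90.2, 120 and 128 CPM. Its change of -0.09 ± 0.13 did not pass (edgeR adjusted p = 0.525); with library totals it was -0.43 and passed (adjusted p = 0.0133).

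The other 4 genes that were higher in oocytes were all copies. Rpl39l had counts in 2 of the 4 control granulosa libraries, at 0, 0.0892, 0 and 0.0609 CPM, and stood at 100, 54.9, 93.9 and 104 CPM in control oocytes. The 4 granulosa control libraries held 3 counts in all and the 4 oocyte control libraries 5741, a ratio per total of 2349 (95% exact interval 803.3 to 11393, counting error only). With blebbistatin the pooled ratio was 3560 (985.2 to 29405), and with dextran, where the granulosa libraries held 0 counts, oocytes were at least 2562-fold higher, taking 3 counts over the group as the floor. Oocyte values across the 3 treatments ran from 54.9 to 114 CPM, the lowest in the control library with the most granulosa transcripts.
Rpl10l, an intronless copy of Rpl10, was at 3.8, 3.04, 6.53 and 1.26 CPM in control oocytes, with 239 counts over the group against 4 over the granulosa control group, a ratio of 73.3 (95% exact interval 28.3 to 271.4). Rps4l, a copy of Rps4x, was at 41.6, 29.1, 65.2 and 45 CPM in control oocytes and at 8.55, 5.66, 8.14 and 4.69 CPM in control granulosa cells, a log2 change of 3.07 ± 0.29. Rpl6l was at 3.07, 2.52, 3.63 and 3.27 CPM against 1.17, 2.07, 2.04 and 1.81 CPM, a change of 1.15 ± 0.37 (edgeR adjusted p = 0.00838) that missed the threshold with library totals (0.81, adjusted p = 0.0539). For each of the 4 copies the oocyte libraries all lay above the granulosa libraries. GENCODE M21 lists Rps4l and Rpl6l among processed pseudogenes or non-coding transcripts, so these counts show RNA and not a protein.

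**Figure D3:**
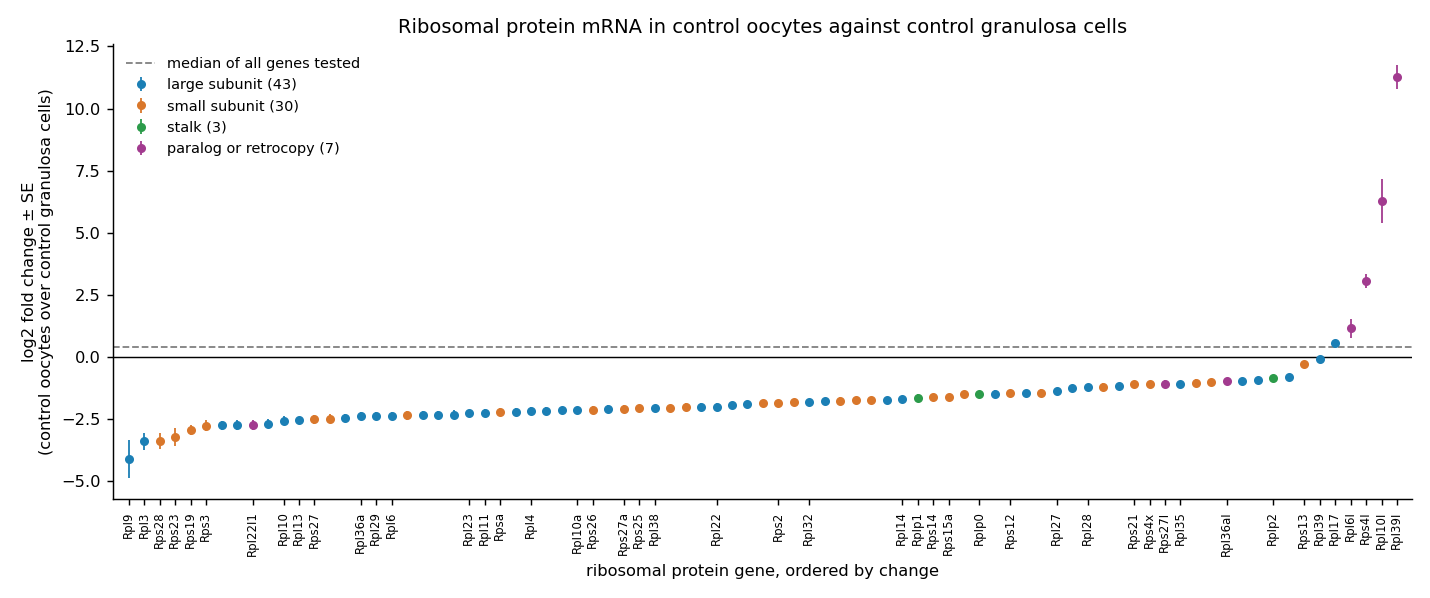
Log2 fold change (± SE, edgeR, n = 4 against 4) of control oocytes over control granulosa cells for the 83 ribosomal protein genes, ordered by change and coloured by kind, with genes named in the text labelled; the dashed line is the median of all genes tested, 0.41. All but 5 points lie below 0, and the fitted values of Rpl39l and Rpl10l, whose granulosa counts are near 0, depend on the prior count of the fit.

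The other 3 paralogs were lower in oocytes, and their balance with the parent gene differed between the cell types. CPM are not corrected for transcript length, so the ratios are read only across groups. The log2 ratio of Rps27l, a p53-responsive paralog, to Rps27 was 0.88 ± 0.40 (SD, n = 4) in control oocytes and -0.58 ± 0.24 in control granulosa cells. That of Rpl36al to Rpl36a was 1.62 ± 0.41 against 0.18 ± 0.13. Both ratios were thus shifted towards the paralog in oocytes, in all 4 against all 4 libraries. The ratio of Rps4l to Rps4x was -2.54 ± 0.52 against -6.62 ± 0.47. That of Rpl22l1 to Rpl22, an RNA-binding protein of the large subunit, went the other way, at -0.50 ± 0.21 in oocytes and 0.24 ± 0.19 in granulosa cells. Each of these 4 had p = 0.0286 in a two-sided exact permutation test, the smallest p that 4 against 4 libraries allow. The adjusted p was 0.139 over the 34 ratio tests made, so that no ratio passed. At this smallest p a ratio passes only where many of the 34 tests reach it, and 7 did. Not passing is therefore no evidence that the ratios were equal.

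**Figure D4:**
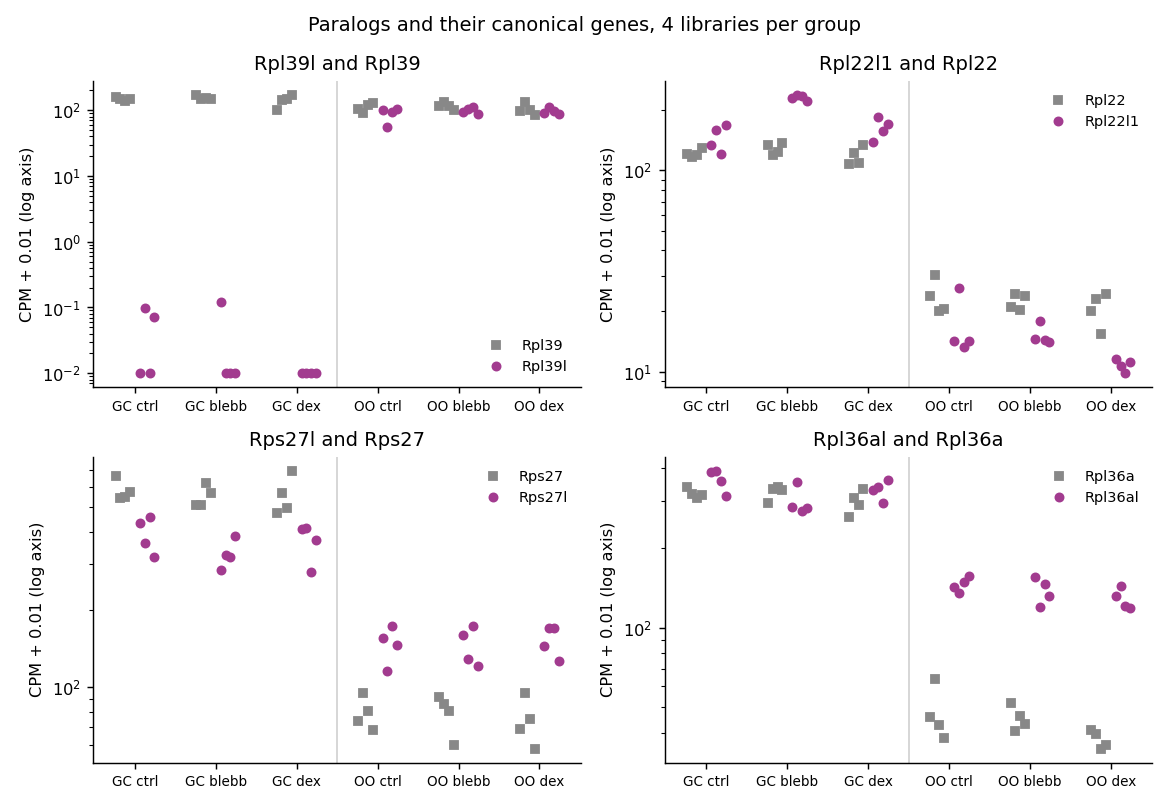
CPM plus 0.01 (log axes) of 4 paralogs (circles) and their parent genes (squares) in the 4 libraries of each of the 6 groups (GC, granulosa cells; OO, oocytes). Rpl39l lies at or near 0 in granulosa cells and between 54.9 and 114 CPM in oocytes, Rpl22l1 is at 221 to 237 CPM in blebbistatin granulosa cells against 120 to 168 CPM in control, and levels of different genes are not per length.

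Blebbistatin was compared with control in granulosa cells to ask whether the family responds to inhibition of myosin. None of the 81 members tested passed an adjusted p under 0.05 (edgeR; 0.00651% of the 15370 genes did), and 1 was higher and 1 lower at an unadjusted p under 0.05 (5.36% and 5.06% of all genes). The members' median change was -0.04, and 51 of 81 lay below 0 against 54.6% of all genes; without blebbistatin library 1, 22 of 81 did, with a median of 0.05, and without blebbistatin library 4, 60 did, with a median of -0.09 and 5 members lower at an unadjusted p under 0.05. The member with the largest change was Rpl22l1, the paralog of Rpl22. It was at 230, 237, 233 and 221 CPM with blebbistatin, at 134, 158, 120 and 168 CPM in control and at 139, 185, 157 and 170 CPM with dextran. The blebbistatin libraries lay above all 8 others. Rpl22l1 was the only 1 of 81 members whose blebbistatin libraries all lay above control, a smaller share than the 2.46% over all genes. Its log2 change against control was 0.69 ± 0.12 (edgeR adjusted p = 0.0968, not passed); DESeq2 called it (0.71, adjusted p = 3.01e-05), as did edgeR without a filter on low counts (0.70, adjusted p = 0.0319) or without blebbistatin library 2 (0.70, adjusted p = 0.0437).
Rpl22 itself was at 133, 119, 124 and 137 CPM with blebbistatin against 120, 117, 119 and 129 CPM, and the log2 ratio of Rpl22l1 to Rpl22 was 0.85 ± 0.13 with blebbistatin against 0.24 ± 0.19 in control (exact permutation p = 0.0286, adjusted p = 0.139). Blebbistatin libraries 3 and 4, with Lyz2 at 0, held 233 and 221 CPM of Rpl22l1, and without libraries 1 and 2 the change was 0.70 (edgeR adjusted p = 0.0662). Stromal markers were also higher with blebbistatin: 11 of the 13 tested lay above 0 in this comparison, with a median of 1.78. Their sum was higher in every blebbistatin library than in any other granulosa library. Of 20 granulosa markers, 16 lay below 0 with a median of -0.34. The part of these markers' cells in the result was not tested. Other members near the top of the order did not pass: Rps12 (0.22 ± 0.12) and Rpl10a (0.16 ± 0.11) on the higher side, and Rpl36al (-0.25 ± 0.11) and Rps14 (-0.20 ± 0.12) on the lower.

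Dextran left the granulosa values of the family within the spread between libraries. None of 81 members passed (edgeR, limma voom and DESeq2; 0% of all genes did in edgeR, and 42 genes in DESeq2), and 0 members were past an unadjusted p of 0.05 in either direction (2.37% of all genes higher, 1.03% lower). The median change was -0.03, and 61 of 81 lay below 0 against 50.5% of all genes; on leaving out 1 library the count ran from 43 (median -0.00, without dextran library 1) to 77 (median -0.08, without dextran library 4). The members of smallest unadjusted p were Rpl22l1 (0.18 ± 0.12), Rpl23 (0.04 ± 0.10) and Rpl35 (0.03 ± 0.08) on the higher side and Rpl28 (-0.12 ± 0.09), Rps26 (-0.12 ± 0.10) and Rps21 (-0.15 ± 0.14) on the lower.
In the direct comparison of blebbistatin with dextran, again none passed in edgeR (0% of all genes), 1 member was higher and 0 lower at an unadjusted p under 0.05 (3.96% and 4.88% of all genes), and 41 of 81 lay below 0 against 55.3% of all genes; without blebbistatin library 1, 8 did and 7 members were higher at an unadjusted p under 0.05, and without dextran library 4, 3 were higher. The member that was higher was Rpl22l1, with a change of 0.51 ± 0.12 (edgeR adjusted p = 0.257) and of 0.54 in DESeq2 (DESeq2 adjusted p = 0.00684). It was the only 1 of 81 members with all 4 libraries above, a smaller share than the 1.84% over all genes. Next came Rpl4 (0.14 ± 0.09) and Rpl38 (0.21 ± 0.13), and on the lower side Rps14 (-0.20 ± 0.12), Rpl27 (-0.17 ± 0.11) and Rpl36al (-0.14 ± 0.11).

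In oocytes, dextran was compared with control to ask whether compression changes the stored mRNAs of the family. None of the 83 members passed (edgeR and DESeq2; 0% of 16749 genes in edgeR), but 77 of 83 lay below 0, against 49.5% of all genes. The median change was -0.23 on the log2 scale, against 0.00 for all genes. All 43 large subunit genes and 28 of 30 small subunit genes lay below 0; among the 6 members above were the paralogs Rpl39l, Rpl10l, Rps27l and Rpl6l. At an unadjusted p under 0.05, 28 members were lower and 0 higher (3.52% and 1.80% of all genes), and the dextran libraries all lay below control for 12 members (1.25% of all genes). Without control oocyte libraries 1 and 2, 77 of 83 still lay below 0 with a median of -0.21, and 6 were lower at an unadjusted p under 0.05. That fit has fewer control libraries, so its count cannot be set directly against the 28 with all libraries. The same holds for the counts without these libraries given below. The count of members lower at that p was 8 without control library 2, 15 without dextran library 1 and 18 without dextran library 4. It also rose, to as many as 39 on leaving out 1 library and 41 under the other alternatives. Granulosa markers moved the same way, with 14 of the 16 tested below 0 and a median of -3.06, and their part in the result was not tested.
The members of smallest unadjusted p were small subunit proteins. Rps3, which lies at the mRNA entry site, was at 60.7, 59, 63.8 and 61.7 CPM with dextran and at 105, 165, 87 and 69.6 CPM in control, so that the groups did not overlap; its change was -0.75 ± 0.21 (edgeR adjusted p = 0.857). Without control libraries 1 and 2 it was -0.33 ± 0.17. Rps19, the protein whose gene is mutated in Diamond-Blackfan anaemia, was at 94.9, 115, 85.6 and 95.3 CPM against 144, 231, 132 and 108 CPM, a change of -0.61 ± 0.19 (-0.27 ± 0.15 without those 2). Rps25 was at 73.1, 91.2, 77.7 and 81.6 CPM against 92.1, 135, 107 and 106 CPM, and its change of -0.40 ± 0.13 was -0.37 ± 0.14 without them. The changes of Rps3 and Rps19 were thus smaller without those libraries, and that of Rps25 moved little.
Rpl9 and Rpl3 had the largest fitted changes, -3.19 ± 1.02 and -1.01 ± 0.36, and these were -0.18 ± 0.56 and -0.10 ± 0.19 without control libraries 1 and 2. Rpl22l1 was at 11.5, 10.6, 9.8 and 11.2 CPM with dextran against 14.2, 26.1, 13.3 and 14.2 CPM, also without overlap, with a change of -0.61 ± 0.22 (edgeR adjusted p = 0.874) and -0.33 ± 0.22 without those libraries. On the higher side, Rpl39l (0.18 ± 0.18) and Rps27l (0.10 ± 0.15) were among the members of smallest unadjusted p and did not pass.

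Blebbistatin gave smaller differences in oocytes. None of 83 members passed (edgeR and DESeq2; 0% of all genes in edgeR), 63 lay below 0 against 51.4% of all genes, and the median was -0.09. That median was -0.03 without control library 2, -0.05 without blebbistatin library 4 and -0.14 without blebbistatin library 3. At an unadjusted p under 0.05, 0 were higher and 4 lower (1.37% and 2.72% of all genes), and without control oocyte libraries 1 and 2 these were 1 and 0. The lower count was 0 without control library 2 or blebbistatin library 2, 1 without blebbistatin library 4 and 7 without control library 3 or 4. Of the 16 granulosa markers tested, 14 lay below 0 with a median of -2.18. Of 83 members, only Rpl30, a large subunit protein, had all 4 libraries below control, a smaller share than the 1.40% over all genes. The members of smallest unadjusted p on the lower side were Rps19 (-0.43 ± 0.19), Rpl29 (-0.36 ± 0.16) and Rpl6 (-0.30 ± 0.13), which were -0.10, -0.30 and -0.10 without those 2 libraries. On the higher side they were Rplp1 (0.26 ± 0.15), Rps4l (0.25 ± 0.22) and Rpl39l (0.18 ± 0.18).
Between blebbistatin and dextran oocytes, a comparison without the control libraries, 75 of 83 members lay above 0 against 49.8% of all genes, with a median of 0.13, and none passed (edgeR and DESeq2; 0% of all genes in edgeR). At an unadjusted p under 0.05, 3 were higher and 0 lower (1.78% and 2.29% of all genes), and 5 members had all blebbistatin libraries above dextran (1.43% of all genes): Rpl36a, Rpl5, Rps25, Rps12 and Rpl22l1. Without dextran library 2 the median was 0.22 and 10 members were higher at an unadjusted p under 0.05. That count was 1 without dextran library 1 or blebbistatin library 2, 5 without blebbistatin library 4 and 7 without control library 2, which enters only the estimate of spread and the scaling. Granulosa markers lay above 0 for 10 of 16, with a median of 1.01, and their part was not tested. Rplp1 had the smallest p, at 102, 96.3, 89.6 and 63.5 CPM with blebbistatin against 54.7, 54.8, 65.7 and 59.2 CPM, a change of 0.54 ± 0.15 (edgeR adjusted p = 0.999). Its stalk partners Rplp0 and Rplp2 had changes of -0.001 ± 0.155 and 0.01 ± 0.14, and the difference between the partners was not tested. Rps25 (0.34 ± 0.13) and Rps12 (0.38 ± 0.16) came next, and Rps27l (-0.11 ± 0.15) and Rps15a (-0.09 ± 0.13) were on the lower side.

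**Figure D5:**
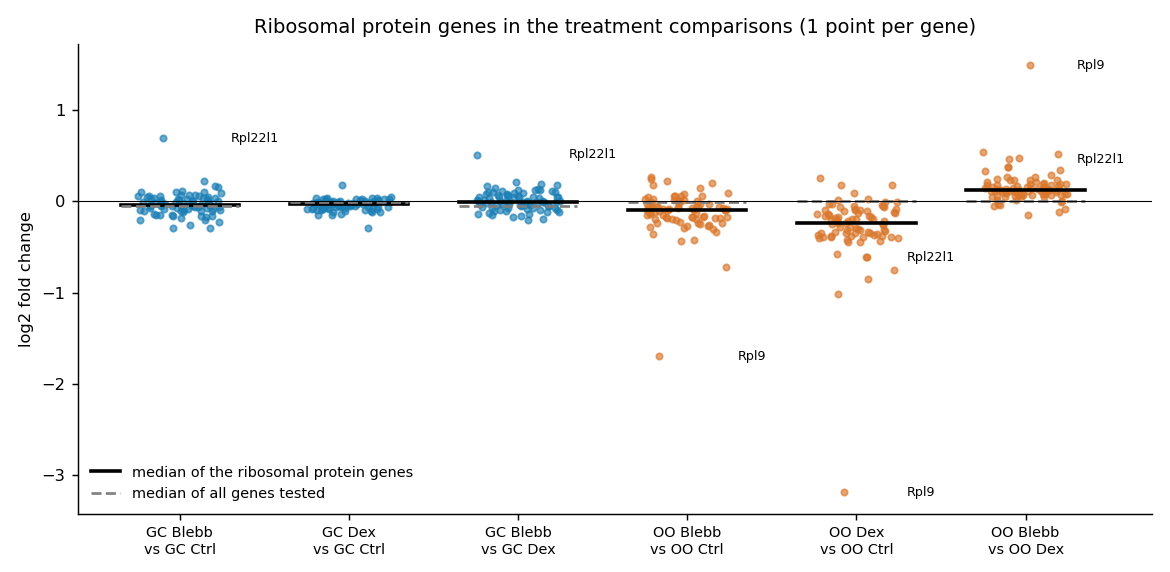
Log2 fold change (linear axis) of each ribosomal protein gene in the 6 treatment comparisons, 1 point per gene (81 in granulosa cells, GC; 83 in oocytes, OO), with the members' median (solid) and that of all genes tested (dashed). Granulosa medians lie at -0.04, -0.03 and -0.002, oocyte medians at -0.09, -0.23 and 0.13, and no point passed the adjusted threshold.

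The difference of each treatment's effect between oocytes and granulosa cells was fitted as an interaction term with the 24 libraries together. No member passed for dextran (edgeR and DESeq2; 0% of 20601 genes in edgeR) or for blebbistatin in edgeR (0.0485% of genes), while DESeq2 called Rpl22l1 for blebbistatin. For dextran, 76 of 83 lay below 0 against 63.2% of all genes, with a median of -0.32 against -0.16 for all genes, and 25 were lower and 2 higher at an unadjusted p under 0.05 (7.76% and 1.52% of all genes). Without control oocyte libraries 1 and 2 the median was -0.11 against 0.10 for all genes, and 1 was lower and 2 higher. For blebbistatin, 69 of 83 lay below 0 against 56.6% of all genes, with medians of -0.11 and -0.10, and 5 were lower and 0 higher at an unadjusted p under 0.05 (7.48% and 3.80% of all genes). Both medians of that interaction were above 0 without those 2 libraries (0.15 and 0.27). On leaving out 1 library the lower count ran from 2 to 39 for dextran and from 1 to 16 for blebbistatin. Rpl22l1 had an interaction of -0.95 ± 0.27 for blebbistatin (edgeR adjusted p = 0.199; DESeq2 -0.83, adjusted p = 0.0318) and of -0.91 ± 0.27 for dextran (edgeR adjusted p = 0.276), which were -0.39 and -0.46 without control oocyte libraries 1 and 2. For blebbistatin, Rpl10a (-0.42 ± 0.17) and Rpl29 (-0.46 ± 0.20) came next on the lower side and Rps4l (0.48 ± 0.38) and Rplp1 (0.23 ± 0.20) stood on the higher. For dextran, Rpl9 had -3.37 ± 1.01 (-0.10 without those 2 libraries) and Rpl10a -0.52 ± 0.17, neither of which passed. Values of Rpl39l and Rpl10l are not given here, since their granulosa counts are near 0.

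The spread between replicate libraries also differed between members. The within-group SD of log2 level had a median of 0.15 over the 81 members in granulosa cells and of 0.20 over the 83 in oocytes. In granulosa cells the most variable were the low copies Rpl6l (0.43) and Rps4l (0.40) and then Rps27l (0.23), and the least variable Rpl35, Rplp0 and Rpl24 (0.09 each). In oocytes the most variable were Rpl9 (1.42), Rps23 (0.65) and Rpl10l (0.62) and among the least variable were Rps7 (0.09) and Rps4x (0.08). Rps4x, the X-linked protein of the small subunit, thus stayed between 210 and 264 CPM in all 12 oocyte libraries, over which Rpl9 ran from 1.79 to 94.6 CPM.

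Other genes of the translation machinery were read from lists for comparison with the family, beside 32.9% lower and 44.4% higher over all genes tested between the control groups. The 6 ribosomal proteins outside the name rule were all lower in control oocytes, with a median of -2.22, among them Rpl7l1 (-1.94 ± 0.15). Of 23 translation factors and other TOP mRNA genes, 19 were lower and 0 higher, with a median of -1.21, among them the elongation factor genes Eef1a1 (-2.09 ± 0.14) and Eef1b2 (-2.25 ± 0.16). Ribosome biogenesis genes were mixed: 22 of 38 were lower, such as Nop10 (-1.67 ± 0.12) and Mybbp1a (-2.18 ± 0.18), and 8 were higher, such as Utp4 (2.02 ± 0.12) and Eif6 (2.14 ± 0.16), which keeps the large subunit from joining too early. Of 19 genes of mTORC1 and translational control tested, 8 were lower, with Larp1 (-3.27 ± 0.37) and Sesn2 (-2.24 ± 0.36) among them, and 7 higher, with Tsc2 (2.92 ± 0.22) and Eef2k (3.93 ± 0.33), the kinase that inhibits elongation. The 78 mitochondrial ribosomal protein genes split into 33 lower, such as Mrpl20 (-2.34 ± 0.21) and Mrpl33 (-1.82 ± 0.14), and 28 higher, such as Mrps25 (2.21 ± 0.13) and Mrps22 (1.94 ± 0.11), with a median of 0.00. The adjusted p of each gene named from these lists was 1e-05 or lower in edgeR, and in none of the 6 treatment comparisons did a gene of these lists pass in edgeR.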

How the data were processed

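The deposited tables hold estimated counts per gene, unnormalized, which the authors produced with salmon, per the column names quoted in the labels. The genome build is GRCm39, per the submitters' processing notes; annotation release, software versions and strandedness were not given in the sources used here. Estimated counts were rounded, and 24 of 24 libraries were used. Genes passing filterByExpr were scaled with TMM and tested with edgeR 4.0.16 (glmQLFit, robust, and glmQLFTest; R 4.3.3), within a cell type over 12 libraries and between cell types over 24, with Benjamini-Hochberg adjustment over all genes tested and a threshold of 0.05. Libraries were judged to overlap or not on the scaled values; printed CPM use the library total. Standard errors come from the fit. Ratios of paralogs used a pseudocount of 0.5 CPM and an exact two-sided permutation test in R. The exact intervals of the pooled count ratios used scipy 1.17.1. Alternatives were limma voom 3.58.1, DESeq2 1.42.0, other scalings and filters, and leaving out libraries. The edgeR step was tested on simulated data.

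Members, lists and tests were chosen with earlier results of these data known. Genes were named by rule: members past the threshold (up to 8 per direction by adjusted p, or the 3 of smallest unadjusted p), the P-stalk, paralogs with their parents, Rpsa, Rps27a, the 3 most and 3 least variable members, and up to 2 genes per direction of each other list. Rpl9, Rpl3, Rps23, Rps28, Rps13, Rpl30 and the marker genes were named after their values were seen. Some genes that the rule names are not reported here. Theca and endothelial markers were also measured. The replicate numbers were not used to pair the libraries in the main fits. Counts split between near-identical copies, and between a gene and its 315 rows of named pseudogenes, are uncertain. No protein sequence was used here.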

Additional observations from a re-analysis of the deposited data

Results flagged for a closer look

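In 12 of 148 groups of 4 libraries, over the summed share and 24 genes, 1 library stood farther from the rest than the 95% critical value of Dixon's test allows; chance alone marks about 1 in 20 groups. In oocytes, dextran library 2 had a share of 1.12% of counts against 0.923 to 0.934% in the other 3, and Rpsa at 58.8 CPM against 44.9 to 46.3 CPM. Control oocyte library 2, which held the most granulosa transcripts, had Rpl22l1 at 26.1 CPM against 13.3 to 14.2 CPM and Rpsa at 94.5 CPM against 56.2 to 62 CPM. Among blebbistatin oocytes, library 1 had Rpl9 at 19.1 CPM against 5.23 to 6.98 CPM, and library 2 had Rpl22l1 at 17.9 CPM against 14 to 14.5 CPM. Among granulosa cells, control library 2 had Rpl17 at 395 CPM against 347 to 350 CPM, and dextran library 1 had Rpl3 at 1350 CPM against 1560 to 1580 CPM. In blebbistatin granulosa library 1, Rpl36a was at 296 CPM against 331 to 338 CPM, and library 2 had Rpl36al at 355 CPM against 275 to 285 CPM. Library 1 also had Rpl39l at 0.109 CPM and Rpl10l at 0.0543 CPM against 0 in the other 3. Those are 2 counts and 1 count, and this test flags any count beside 3 libraries at 0.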

How the results depend on the processing

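The 122 results were recomputed under the alternatives, and 3212 of the 3280 values were labelled the same. For genes and ratios this meant the same direction and the same side of the threshold, also where neither value passed. For medians and shares it meant a move within the spread between libraries, and for counts of members called an equal or similar number. In control oocytes against control granulosa cells, 75 to 78 members were lower under every alternative; 3 were higher with a filter at 5 CPM, which leaves Rpl10l and Rpl6l untested. The members' median there was -2.19 with library totals, -2.14 with upper-quartile factors and -2.05 with that filter, and -1.99 to -1.79 on leaving out 1 library, where factors were computed anew; a DESeq2 adjusted p of Rpl9 was not available. DESeq2 and edgeR without a low-count filter each called 1 member in blebbistatin against control granulosa cells, DESeq2 1 member against dextran and 1 in the blebbistatin interaction (Rpl22l1 in each), and leaving out 1 library gave 0 to 1. Over all genes, DESeq2 called 377, 42 and 214 in the granulosa comparisons (blebbistatin and dextran against control, blebbistatin against dextran), where edgeR called 1, 0 and 0; 16, 4 and 0 in oocytes, where edgeR called 0; and 382 and 243 in the interactions, where edgeR called 10 and 0. Without a filter edgeR called 23 in the first, and 0 to 115 on leaving out 1 library. Leaving out 1 library gave 0 to 1 members (Rpl9) in the dextran interaction, whose median was -0.15 with the 5 CPM filter, -0.11 without control oocyte libraries 1 and 2, and -0.37 to -0.07 on leaving out 1 library. The median of the blebbistatin interaction was 0.06 with factors computed without the members, with the 5 CPM filter and without blebbistatin granulosa libraries 1 and 2, 0.15 without control oocyte libraries 1 and 2, and -0.22 to 0.17 on leaving out 1 library. The granulosa control share was 5.33% with mitochondrially encoded genes left out of the total. Signs changed for these uncalled genes: without control oocyte libraries 1 and 2, Rpl39 between cell types (0.02, and also 0.02 with factors without the members), Rps4l (-0.05), Rpl39l (-0.005), Rpl9 (1.31), Rpl3 (0.19) and Rpl22l1 (0.13) for blebbistatin oocytes, and Rpl39l (-0.0003) and Rps27l (-0.03) for dextran oocytes. On leaving out 1 library the ranges reached past 0 for Rpl35 in dextran granulosa cells (-0.02 to 0.07), Rpl39l (-0.001 to 0.28), Rpl22l1 (-0.25 to 0.12) and the ratio of Rpl22l1 to Rpl22 (-0.12 to 0.05) in blebbistatin oocytes, Rps27l (-0.01 to 0.18) in dextran oocytes, and Rps15a (-0.16 to 0.02) between the 2 treatments. The cause of these changes was not tested. With the replicate number as a block (replicate block), 0 members were called in each treatment comparison and interaction. Between cell types, 77 were lower and 5 higher with that block. Deviations from the group means were correlated between libraries of different groups. Within a cell type, 5 of 24 same-numbered pairs (mean 0.035) and 5 of 72 differently numbered pairs (mean -0.011) lay above 0.1. Between cell types these were 0 of 36 and 0 of 108. Whether the numbers pair libraries within a cell type was not settled by these values. No paralog ratio passed under any alternative (exact permutation test, smallest adjusted p 0.121), for which so few libraries left little room in advance. The number of libraries (4 per group) and the low granulosa counts of Rpl39l and Rpl10l limit the precision.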
